A study of Mus musculus with 38 samples.

Results

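The genes described here make ribosomes: they encode proteins that transcribe ribosomal RNA, process it and assemble it into subunits in the nucleolus. A fixed list of 42 gene symbols defined the set, drawn up by function but with earlier results of these data known. Of these 42 genes, 39 had a probe set carrying their symbol alone, out of 19939 such genes on the array. Noc2l and Npm3 had no such probe set, and Ppan shared its only probe set with another gene. The values came from 38 arrays of mouse CD8 T cell clones. Clones sAg1 and sAg3 are IL13+ and are the CD8γ13 clones of the design, clones 8uvmo-2 and 8uvmo-3 are IL13-negative and stand for the Tc1 type, and CD8bm1 is a conventional alloreactive clone. Each clone was measured dormant and after 14 h on plates coated with the anti-CD3 antibody 145-2c11 (0.5 ug/ml), which engages the T cell receptor complex. There were 18 dormant and 20 activated arrays, 3 for each IL13+ clone in the dormant state and 4 in each of the other 8 groups. All cells grew in RPMI 1640 with serum, and no strain, age or sex is given in the labels used here. Each phenotype rests on 2 clones and the alloreactive type on 1, so a phenotype difference and a difference between individual clones cannot be told apart.

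RNA polymerase I copies ribosomal DNA into a long precursor in the nucleolus. Small nucleolar ribonucleoproteins (snoRNPs) modify that precursor, a large assembly called the small subunit processome cuts out and folds the small subunit RNA, and another set of factors builds the large subunit. T cells that engage their receptor enlarge their nucleoli and raise ribosome production before they grow and divide, and the transcription factor Myc is known to drive many of these genes.

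Values are log2 probe set signals. Activated arrays had higher medians over all probe sets (7.01 to 7.09) than dormant arrays (6.58 to 6.70), so activation was examined on 2 scales: with every array centred on its own median ("centred"), and as deposited. A deposited activation difference exceeds the centred one by the same amount for every probe set: 0.40 in the mean of the clones, 0.41 in sAg1, sAg3 and CD8bm1, 0.40 in 8uvmo-2 and 0.38 in 8uvmo-3. Differences without a scale named are centred, and array values without a scale named are as deposited. The median change of all 23410 named probe sets was -0.05 centred and 0.35 as deposited. The change itself varied with brightness on either scale. Probe sets with a mean level of 5 to 6 had a median change of 0.17 centred and 0.57 deposited, those at 9 to 10 of -0.42 and -0.02. Most members lie at 9 to 11, where the deposited scale put the median probe set close to 0. A probe set was counted as higher or lower at a limma adjusted p under 0.05 (Benjamini-Hochberg over all 23410 probe sets). In bulk RNA, a change in the share of cells expressing a gene and a change in RNA per cell cannot be told apart.

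The arrays carried T cell RNA: between 9 and 10 of 11 T cell markers had a group mean of at least 7, and the CD8 and CD3 genes were bright in every group. No B cell marker of 7 reached that level, and 1 to 2 of 14 macrophage markers did, Cd68 being the one that did so in every group. Of 12 stroma and epithelium markers 2 to 6 reached it in a group, with no group mean over 8.86. The dormant 8uvmo-2 arrays fell into 2 sets. Arrays 1 and 3 had cell cycle gene medians of 10.84 and 10.92, arrays 2 and 4 of 8.87 and 8.21. Array 3 of dormant CD8bm1 had the lowest members' median of its group, 9.02 against 9.40 to 9.77.

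Activation raised most of the members. On the centred scale 33 of 39 were higher after 14 h of anti-CD3 in the mean of the 5 clones, 4 were lower and 2 were not called (limma). The background was 37.3% of all probe sets higher and 46.8% lower. On the deposited scale 38 were higher and 1 lower, against 68.4% and 22% of all probe sets. The median member rose by 0.54 on the centred scale and by 0.94 as deposited. Members that gained at least 1 log2 unit numbered 4 centred (background 1.19%) and 14 as deposited (4.68%). Of probe sets with a mean level of 9 to 10, 16.8% were called higher on the centred scale and 42.6% as deposited.

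**Figure D1:**
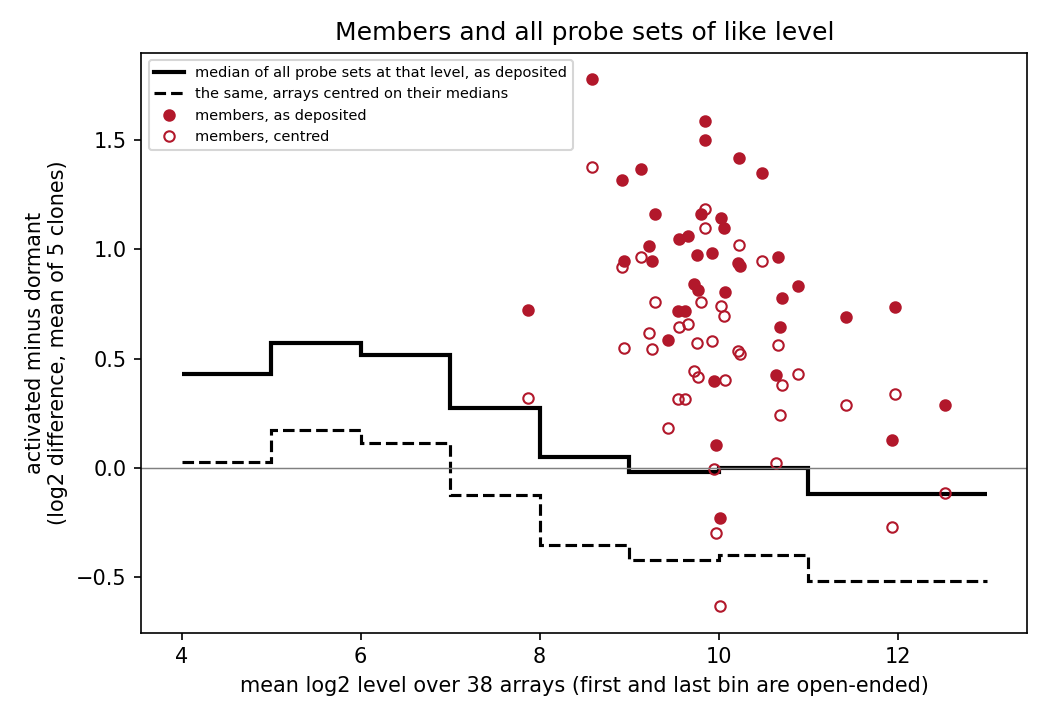
Activation difference (activated minus dormant, mean of 5 clones, log2) of the 39 members against their mean log2 level over 38 arrays, with the median of all named probe sets in each level bin as steps. Members lie above the step of their own level bin on both scales except Polr1c, whose points are at -0.64 (centred) and -0.23 (deposited).

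How far the states separated depended on the scale. On deposited values the median of the members ran from 8.78 to 9.77 over the dormant arrays and from 10.03 to 10.65 over the activated ones, with no overlap. On centred values the ranges were 8.97 to 10.06 and 9.82 to 10.44, and they overlapped. For 15 members every activated array lay above every dormant array of any clone as deposited, where 27.2% of all probe sets did so. On the centred scale only Nol6 and Rrp9 did so (background 5.34%), and only Polr1c lay below on every activated array (background 7.74%, and 1.15% as deposited). Both centred shares were near or below the background. Within each clone, every activated array lay above every dormant one for 38 members in sAg1, 37 in 8uvmo-2, 37 in 8uvmo-3, 31 in sAg3 and 25 in CD8bm1 as deposited (background 61.2%, 56.6%, 59.3%, 58% and 55.1%). On centred values these counts were 35, 35, 30, 13 and 10 (27.3%, 25.7%, 27.9%, 21.7% and 22.3%), with the share in CD8bm1 near its background.

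The small subunit processome held the member with the largest rise, Rrp9 (probe set 10588522, chromosome 9), a protein of the U3 snoRNP that guides the earliest cuts of the precursor. In sAg1 Rrp9 read 7.94, 8.01 and 7.91 on the dormant arrays and 9.77, 9.81, 9.74 and 9.81 on the activated ones; in sAg3 it read 7.71, 7.54 and 7.46, then 9.03, 8.99, 9.08 and 9.02. In 8uvmo-2 the dormant values were 7.30, 7.10, 7.46 and 7.27 and the activated values 9.35, 9.71, 9.92 and 9.42, and in 8uvmo-3 they were 7.64, 7.57, 7.65 and 7.51, then 8.99, 9.89, 9.35 and 9.82. CD8bm1 read 7.87, 7.77, 7.58 and 8.27 dormant and 9.16, 9.26, 9.31 and 9.24 activated. The states did not overlap in any clone, and activated sAg3 and CD8bm1 were the lowest activated groups. The mean centred difference was 1.38 ± 0.07 (SE, limma adjusted p = 1.2e-19), and 1.78 as deposited.

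Of the 14 small subunit members 12 rose on the centred scale, 1 fell and 1 was not called, with a median of 0.56; as deposited all 14 rose. Nol6 (probe set 10512165, chromosome 4), a processome component, ran from 8.40 to 9.49 over dormant arrays and from 10.20 to 10.95 over activated arrays, a centred rise of 1.10 ± 0.05 (limma adjusted p = 9.3e-20). The rise was called in every clone and lay between 0.77 in 8uvmo-3 and 1.51 in 8uvmo-2. Utp20, a very large processome scaffold protein, rose by 0.96 ± 0.07 and Bysl, which acts late in small subunit assembly, by 0.76 ± 0.06. The early-acting Utp4, Heatr1, Wdr75, Wdr43 and Utp15, which load onto the nascent precursor, rose by 0.56, 0.44, 0.52, 0.24 and 0.18. Tsr1, Nop14 and Rrp12, further assembly factors, rose by 0.64, 0.58 and 0.55. Nob1, the nuclease that makes the last cut of the small subunit RNA, had a centred difference of -0.01 ± 0.05 and a deposited rise of 0.40.

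Ddx10 (probe set 10593508, chromosome 9), a DEAD-box RNA helicase of the processome, moved in opposite directions in different clones. It read 9.68, 9.72 and 9.71 in dormant sAg1 and 10.44, 10.44, 10.29 and 10.14 after activation. In sAg3 it read 10.16, 10.12 and 10.24 dormant and 9.25, 9.14, 8.93 and 9.08 activated. In CD8bm1 it read 10.42, 9.89, 10.25 and 9.97, then 9.58, 9.84, 9.72 and 9.65. Activated sAg3 was the lowest group of all, and as deposited the states did not overlap in these 3 clones. On centred values they stayed apart in sAg3 and CD8bm1 but not in sAg1. The change was -1.48 centred and -1.07 deposited in sAg3, and -0.84 and -0.43 in CD8bm1. It was higher by 0.42 centred and 0.82 deposited in 8uvmo-2, and in sAg1 and 8uvmo-3 it was called higher as deposited only (0.62 and 0.58). The mean over clones was -0.30 ± 0.05 centred (limma adjusted p = 8.9e-07) but 0.10 as deposited, so its mean has no stable direction.

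**Figure D2:**
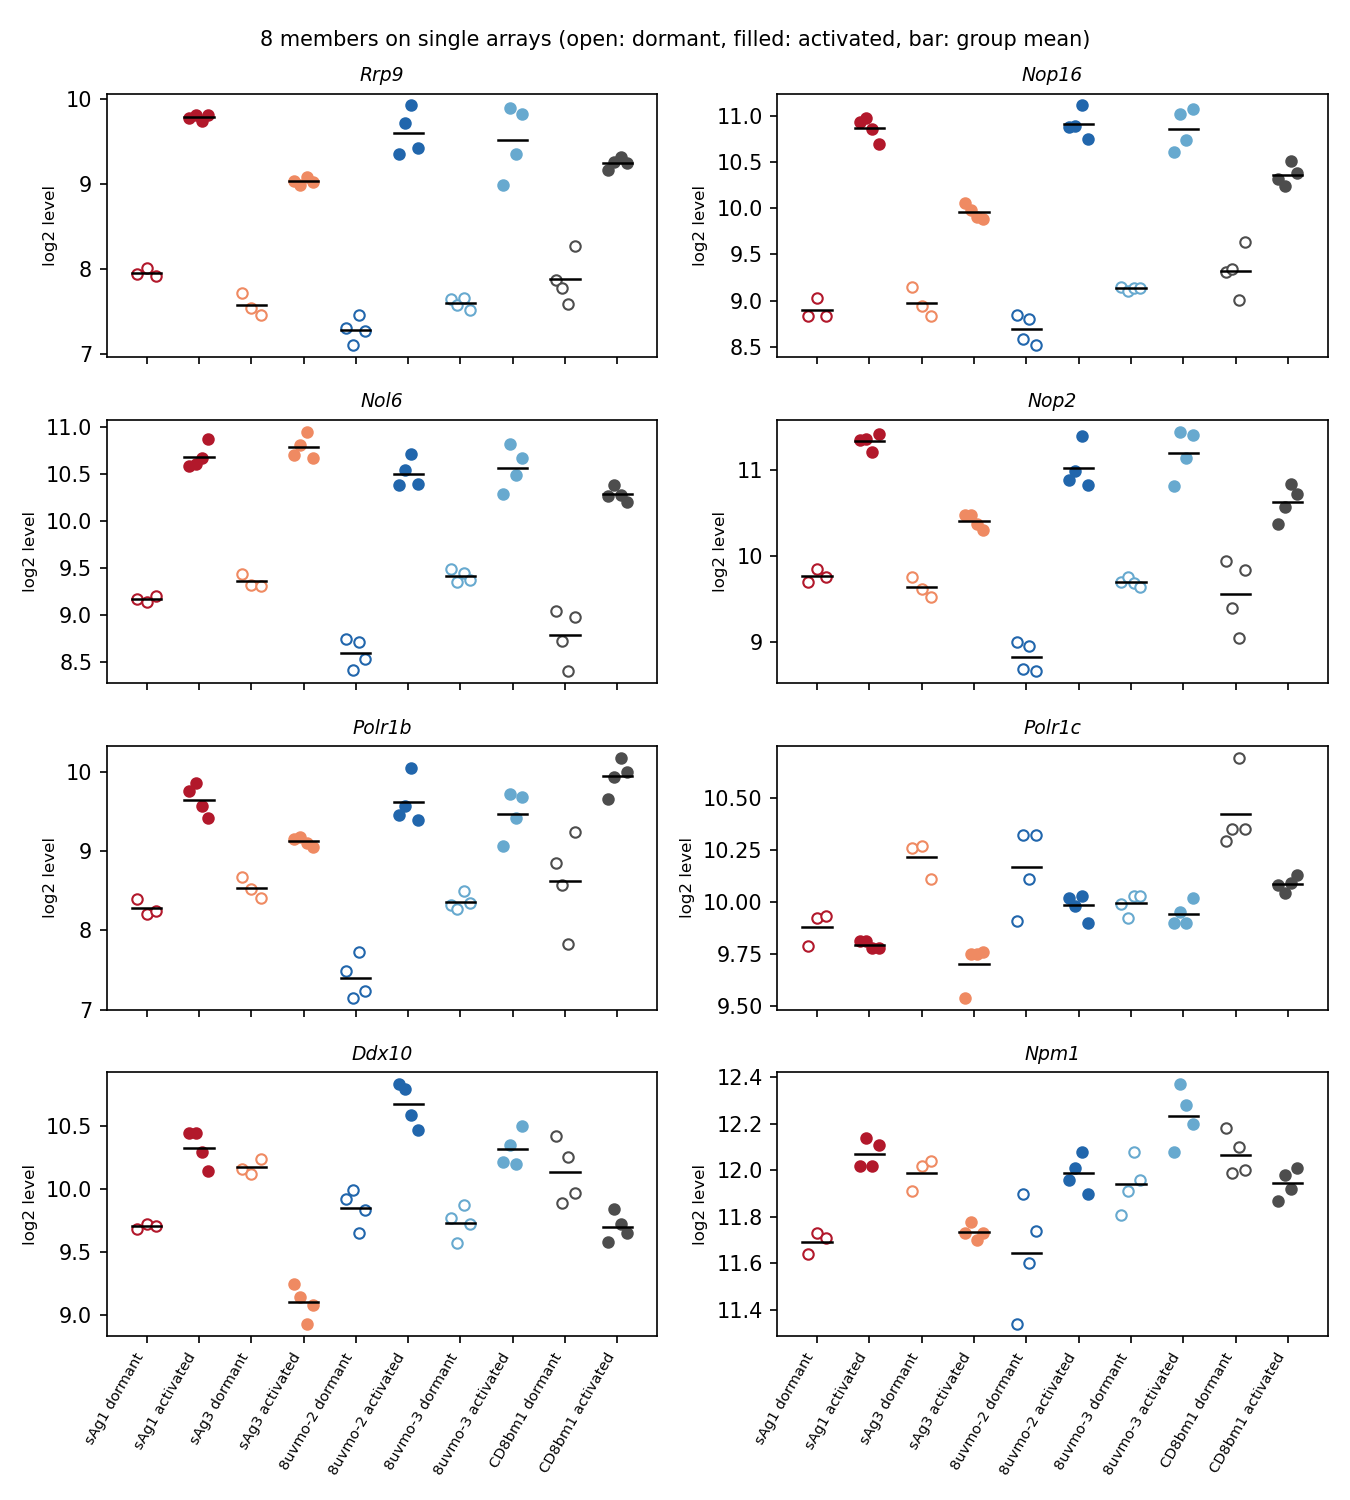
Deposited log2 level of 8 members on each of the 38 arrays by clone and state; open circles are dormant arrays, filled circles activated arrays, bars group means. Rrp9, Nop16, Nol6 and Nop2 separate the states in every clone, Polr1c lies lower after activation in sAg3 and CD8bm1, and Ddx10 drops to 8.93 to 9.25 in activated sAg3 while it rises in 8uvmo-2.

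RNA polymerase I subunits split. Polr1b, the second-largest subunit, ran from 7.15 to 9.24 over dormant arrays and from 9.05 to 10.17 over activated ones, and rose by 0.92 ± 0.09 (centred; 1.32 as deposited). In 8uvmo-2 it read 7.49, 7.15, 7.72 and 7.24 dormant and 9.45, 9.56, 10.05 and 9.39 activated, the largest gain of any clone. In sAg3 it read 8.67, 8.52 and 8.40, then 9.15, 9.18, 9.10 and 9.05, a gain not called on the centred scale (0.18). Polr1a, the largest subunit, rose by 0.62 ± 0.04 (centred; 1.02 as deposited). Polr1c (probe set 10451238, chromosome 17) belongs to both RNA polymerase I and III and was the only member lower on both scales, by -0.64 ± 0.04 centred (limma adjusted p = 7.2e-18) and -0.23 as deposited. Its dormant arrays read 10.26, 10.27 and 10.11 in sAg3 and 10.29, 10.35, 10.69 and 10.35 in CD8bm1. Activated arrays read 9.54, 9.75, 9.75 and 9.76 in sAg3 and 10.08, 10.04, 10.09 and 10.13 in CD8bm1. These 2 clones separated the states as deposited, whereas in sAg1, 8uvmo-2 and 8uvmo-3 the states overlapped.

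All 7 snoRNP proteins rose on both scales, with a centred median of 0.54. Nhp2, Gar1 and Dkc1 belong to the particles that convert uridine to pseudouridine. As deposited Nhp2 ran from 8.55 to 9.58 dormant and from 9.93 to 10.80 activated, without overlap, while its centred values overlapped. It rose by 0.76 ± 0.06 (centred, limma adjusted p = 2.6e-14). Gar1 rose by 0.66 ± 0.06 and Dkc1 by 0.54 ± 0.11. Dkc1 spread widely within dormant groups, from 8.53 to 9.82 over the 8uvmo-2 arrays and from 9.02 to 10.67 over the CD8bm1 arrays. Nolc1, a snoRNP chaperone, rose by 0.70 ± 0.07. The proteins of the methylating particles rose less on the centred scale: Fbl, the methyltransferase, by 0.41, Nop56 by 0.34 and Nop58 by 0.29 ± 0.08. The further probe set of Fbl rose by 0.72.

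Of 11 large subunit members 10 rose on the centred scale (median 0.40) and all 11 as deposited. Nop16 (probe set 10409338, chromosome 13) read 8.84, 9.03 and 8.83 in dormant sAg1 and 10.93, 10.97, 10.86 and 10.69 after activation. In sAg3 it read 9.15, 8.94 and 8.83, then 10.06, 9.98, 9.91 and 9.88. As deposited all activated arrays (9.88 to 11.11) lay above all dormant ones (8.52 to 9.63), while the centred values of Nop16 overlapped across clones. Activated sAg3 was the lowest activated group. Its centred rise was 1.18 ± 0.05 (limma adjusted p = 1.9e-20). Nop2 (probe set 10541845, chromosome 6), an RNA methyltransferase of the large subunit, rose by 1.02 ± 0.07 centred. As deposited it ran from 8.66 to 9.94 over dormant arrays and from 10.30 to 11.44 over activated ones, while its centred values overlapped across clones. Ftsj3, another methyltransferase of this pathway, rose by 0.74.

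Bop1, Pes1 and Wdr12 form 1 complex (PeBoW) needed for large subunit RNA processing, and they did not move alike. Bop1 rose by 0.57 ± 0.05 and Wdr12 by 0.55 ± 0.06 on the centred scale, while Pes1 differed by 0.02 ± 0.03 and was not called. As deposited Bop1 rose by 0.97, Wdr12 by 0.95 and Pes1 by 0.42. Wdr12 had a further, dimmer probe set, which rose by 0.98. The brighter one stands for Wdr12 throughout, and whether it measures the Wdr12 gene itself is uncertain. Gnl3 (nucleostemin, a nucleolar GTPase), Wdr74, Rrs1, Nip7 and Rrp1b rose by 0.40, 0.38, 0.32, 0.32 and 0.32.

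Among other nucleolar proteins Mybbp1a, a Myb-binding protein of the nucleolus, rose by 0.95 ± 0.06 centred. As deposited every activated array (10.44 to 11.61) lay above the highest dormant array (10.28), while its centred values overlapped across clones. Ddx21, an RNA helicase acting in both ribosomal RNA transcription and processing, rose by 0.43. The most abundant nucleolar proteins behaved differently. Ncl (nucleolin) and Npm1 (nucleophosmin) were already bright in dormant cells, at 12.20 to 12.68 and 11.34 to 12.18. They were lower by -0.12 ± 0.03 and -0.27 ± 0.03 on the centred scale and higher by 0.29 and 0.13 as deposited, so the scale decides their direction. Both lay above the centred median of -0.52 for probe sets brighter than 11. In sAg3 Npm1 read 11.91, 12.02 and 12.04 dormant and 11.73, 11.78, 11.70 and 11.73 activated, lower without overlap. In 8uvmo-3 it read 11.81, 11.91, 12.08 and 11.96, then 12.08, 12.37, 12.28 and 12.20, so on the deposited values these clones moved in opposite directions. Npm1 also has 3 probe sets shared with another locus, which gave centred values of -0.32, -0.23 and -0.20. The Ppan probe set, shared with another gene, read 0.77.

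The size of the response differed between clones. On the centred scale, activation of 8uvmo-2 called 36 members higher and 1 lower (background 31.3% and 36.9%). For 8uvmo-3 the counts were 30 and 1 (31.3% and 36.5%) and for sAg1 they were 29 and 1 (27% and 35.9%). CD8bm1 had 18 higher and 6 lower (27% and 38.7%), and sAg3 had 9 and 6 (22.7% and 37.4%). The members higher by at least 1 log2 unit numbered 22 for 8uvmo-2 (2.49% of all probe sets), 6 for sAg1 (2.27%), 3 for 8uvmo-3 (1.95%), 2 for sAg3 (0.649%) and 1 for CD8bm1 (0.948%). Lower by that much was Ddx10 alone, in sAg3 (3.74%); such losses made up 6.13% of probe sets in the mean, and 8.06% (sAg1), 9.2% (8uvmo-2), 8.14% (8uvmo-3) and 6.95% (CD8bm1) elsewhere. The median change of the members was largest for 8uvmo-2 (1.07), followed by sAg1 (0.62), 8uvmo-3 (0.56), CD8bm1 (0.26) and sAg3 (0.08); over all probe sets these medians lay between -0.08 and -0.01. As deposited 38 members were called higher in each of 8uvmo-2, sAg1 and 8uvmo-3 (63.2%, 62% and 62.2% of all probe sets), 35 for CD8bm1 (61.4%) and 28 for sAg3 (59%). In sAg3 the share of members called higher on the centred scale was near the background, and the share called lower was below it.

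The clones at the ends of the range were mostly the same from gene to gene. The smallest centred effect was in sAg3 for 32 members, and the largest was in 8uvmo-2 for 35. Between them the order changed: the effect was larger in 8uvmo-3 than in sAg1 for 14 members and smaller for 25. The activation effects of the 5 clones were unequal for 38 of 39 members in limma's moderated F test, with 45.2% of all probe sets called; Dkc1 was the exception (adjusted p = 0.082). The smallest adjusted p-values were those of Ddx10 (1.4e-12), Wdr75 (2.9e-08), Nop16 (7.1e-08) and Utp4 (2.0e-07). In a contrast chosen after these values were seen, the effect in sAg3 was below the mean of the other 4 clones for 31 members (10.1% of all probe sets lower, 9.58% higher), with all 39 differences negative and Ddx10 alone past 1 log2 unit (-1.48; 1.24%). The effect in 8uvmo-2 was above the mean of the other 4 for 35 members (10.5% higher, 9.09% lower), with Polr1b (1.12) and Mybbp1a (1.03) past 1 log2 unit (0.893%). Leaving out dormant 8uvmo-2 arrays 1 and 3 gave 35 and 36 for these counts. Those arrays read higher than the remaining dormant arrays of 8uvmo-2 for 32 members and lower for 7. Their omission therefore enlarges the 8uvmo-2 effect for most members, and cannot show whether the counts would hold with a smaller effect. Counts without arrays 2 and 4 are not given here. With 1 array left out at a time, the counts were 24 to 34 for sAg3 and 32 to 37 for 8uvmo-2. Since these contrasts were picked on the values they test, they describe the clones.

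**Figure D3:**
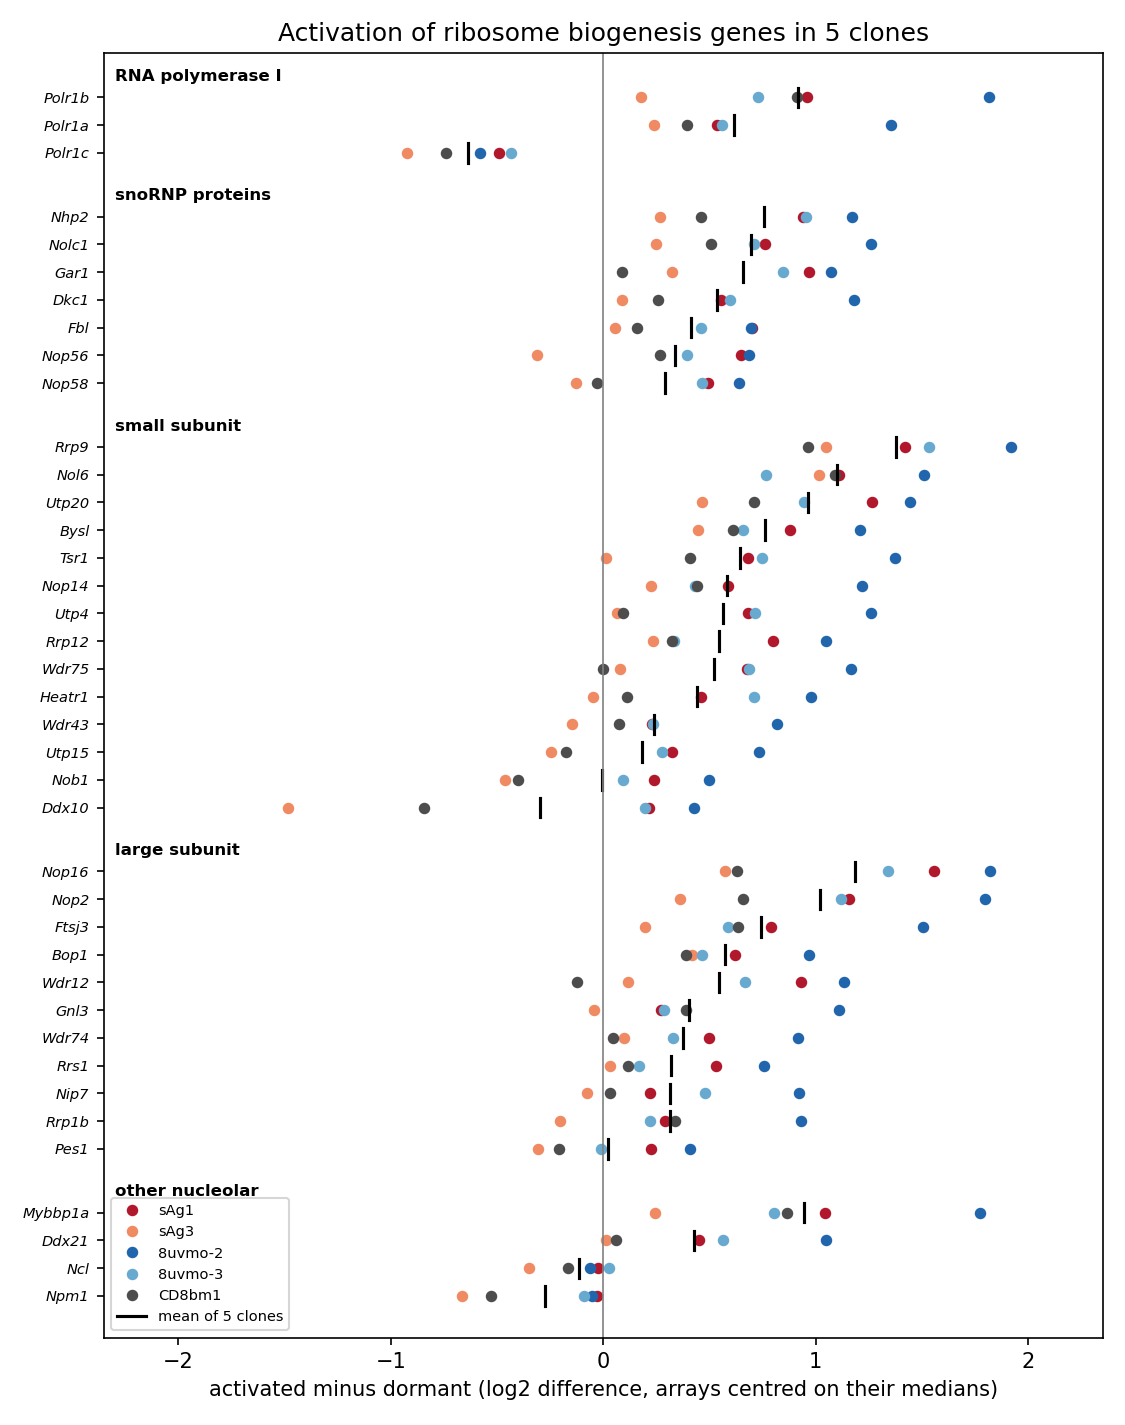
Centred log2 activation difference of each of the 39 members in each clone (coloured points) with the mean of 5 clones (black bars), grouped by role and sorted by the mean. 8uvmo-2 has the largest effect for 35 members and sAg3 the smallest for 32; Polr1c lies below 0 in every clone and Ddx10 spans -1.48 to 0.42.

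In sAg3 the members called higher on the centred scale were led by Rrp9 (1.05), Nol6 (1.01), Nop16 (0.57) and Utp20 (0.46). Those called lower were led by Ddx10 (-1.48), Polr1c (-0.92), Npm1 (-0.67) and Nob1 (-0.46). As deposited Nob1 differed by -0.05 and was not called, while Ddx10, Polr1c and Npm1 stayed lower, by -1.07, -0.51 and -0.26. In CD8bm1 Nol6 (1.09), Rrp9 (0.96), Polr1b (0.91) and Mybbp1a (0.86) led the rise. In 8uvmo-2 the largest rises were those of Rrp9 (1.92), Nop16 (1.82), Polr1b (1.81) and Nop2 (1.79). In 8uvmo-3 they were those of Rrp9 (1.53), Nop16 (1.34), Nop2 (1.12) and Nhp2 (0.95), and in sAg1 those of Nop16 (1.55), Rrp9 (1.42), Utp20 (1.27) and Nop2 (1.16). Leaving out array 3 of dormant sAg3 lowered the count of members called higher in sAg3 from 9 to 5.

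The clones also started from different levels. Dormant 8uvmo-2 had the lowest mean of all dormant clones for 29 members, with a median level of 9.01 against 9.41 to 9.59 in the others, and the dormant arrays of 8uvmo-2 enter both this level and its activation effect. Its arrays 1 and 3 read higher than arrays 2 and 4 for 32 of 39 members, by a median of 0.25. After activation 8uvmo-2 reached a median of 10.51, close to 10.57 in sAg1 and 10.45 in 8uvmo-3, while activated sAg3 had the lowest mean for 28 members and a median of 10.09. The dormant clones were unequal for 35 members (59.9% of all probe sets) and the activated clones for 38 (53.5%), by the moderated F test. Wdr75, Polr1a, Nop14 and Rrp12 had the smallest adjusted p-values among dormant clones (7.3e-12, 1.7e-11, 1.7e-09 and 4.9e-09), and Ddx10, Ddx21, Ncl and Wdr75 among activated clones (4.8e-15, 1.7e-11, 2.4e-11 and 3.5e-11). Ddx21 read 10.75 to 10.95 in activated sAg3 and 10.64 to 10.94 in activated CD8bm1, below the 11.35 to 11.92 of the other 3 activated clones.

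Myc, which binds E-box sequences and is a known activator of ribosome biogenesis genes, was followed with its partners and antagonists. Myc read 11.14, 11.09 and 10.92 in dormant sAg1 and 11.34, 11.16 and 10.91 in dormant sAg3. It read 9.54, 8.32, 9.38 and 8.39 in dormant 8uvmo-2, the lowest group. After activation it read 10.73, 11.17, 11.81 and 10.96 in 8uvmo-2 and 11.15, 11.04, 10.81 and 10.89 in sAg3. It rose by 1.86 centred in 8uvmo-2 and by 0.84 in 8uvmo-3, and was not called on that scale in sAg1 (0.55), CD8bm1 (0.41) or sAg3 (-0.57). As deposited it was called higher in 4 clones, by 2.26 in 8uvmo-2, 1.22 in 8uvmo-3, 0.95 in sAg1 and 0.82 in CD8bm1, and differed by -0.16 in sAg3, not called. Myc was lowest in the dormant clone with the lowest members and had no rise in the clone with the smallest effects. Other orders differed. Myc rose more in 8uvmo-3 than in sAg1, while the members' median change was 0.56 and 0.62. Activated 8uvmo-2 averaged 11.168 for Myc, below 11.735 in CD8bm1, with members' median levels of 10.51 and 10.20. These are descriptions over 5 clones and a link was not tested.

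Of the 10 regulators 4 were higher and 5 lower in the mean of the clones on the centred scale (background 37.3% and 46.8%), with a median of -0.08. Myc had a mean rise of 0.62 ± 0.13 and its partner Max of 0.14. The Myc antagonists Mxd4, Mxi1, Mxd3 and Mxd1 were lower by -1.21, -0.89, -0.82 and -0.49 centred and by -0.81, -0.48, -0.42 and -0.09 as deposited, the last not called there. These means cover clones that differed. Mxd4 fell by 2.21 in sAg1, 1.75 in 8uvmo-2 and 1.46 in 8uvmo-3, but was not called in CD8bm1 (-0.16 centred, 0.25 deposited). Mxd3 was not called in sAg1 (-0.10 and 0.31) or sAg3, nor Mxd1 in sAg3 (-0.13 and 0.29), nor Mxi1 in sAg1 and CD8bm1. Within dormant 8uvmo-2, arrays 1 and 3 differed from arrays 2 and 4 by 1.73 for Mxd3 and -1.34 for Mxi1. Mnt was lower by -0.18 centred but higher by 0.22 as deposited. Mycn and Mycl rose by 0.34 and 0.15 at mean levels of 6.63 and 6.41, where the median probe set rose by 0.11. Mlx differed by 0.02 centred.

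**Figure D4:**
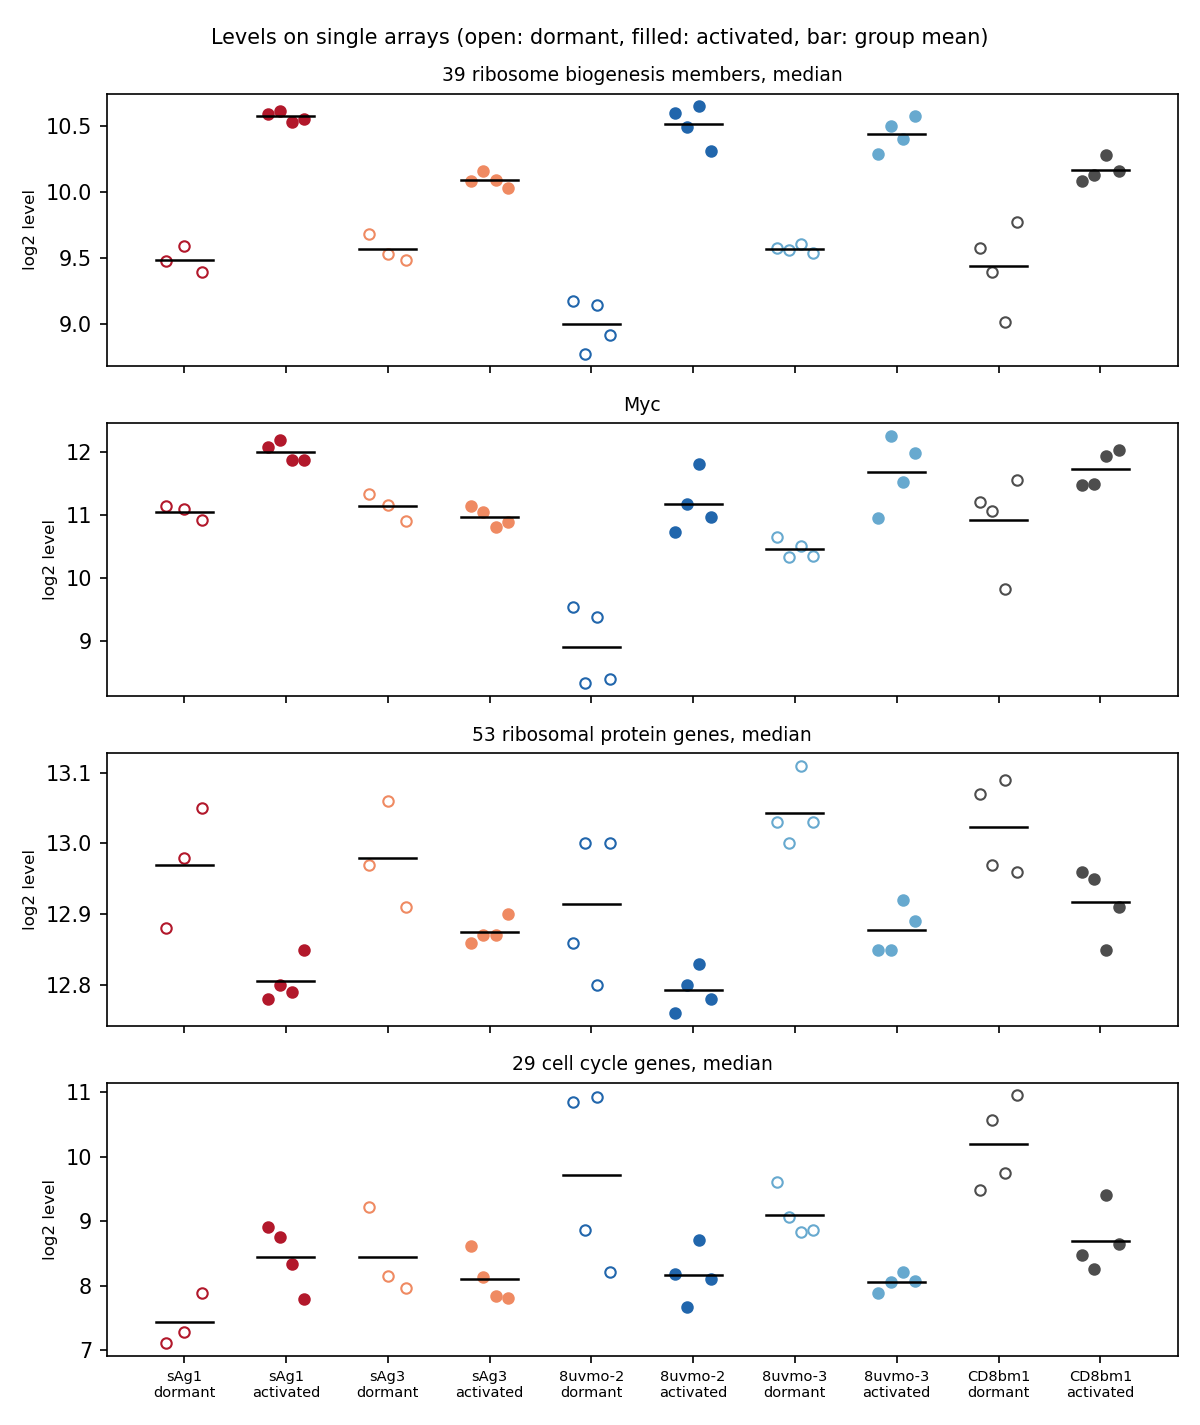
Deposited log2 level on each array of the median of the 39 members, of Myc, of the median of 53 ribosomal protein genes and of the median of 29 cell cycle genes, by clone and state (open dormant, filled activated, bars group means). Member medians separate the states in every clone, and Myc does not separate them in sAg3 or CD8bm1. The ribosomal protein medians do not follow the members, and the cell cycle group means rise only in sAg1.

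Promoters were searched because the members moved together and Myc is known to bind CACGTG. Of the 42 members 36 had an entry in the RefSeq promoter table (mouse GRCm38.p6, 250 bases before to 50 after the annotated start); Bop1, Fbl, Nol6, Npm1, Rrp12 and Rrs1 had none. CACGTG, which reads the same on both strands, lay in 7 of 36 windows (19.4%), against 8.09% of the windows of 27025 genes. The sequence lies 60 bases before the start in Nop2 and after the start in the other 6. The 7 matches are given 5′ to 3′ on the gene's strand, with the motif in capitals and up to 12 bases on either side.
Mybbp1a: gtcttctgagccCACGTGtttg
Nop2: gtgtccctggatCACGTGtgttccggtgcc
Pes1: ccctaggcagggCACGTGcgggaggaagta
Tsr1: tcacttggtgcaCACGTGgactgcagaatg
Utp20: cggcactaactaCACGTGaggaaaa
Utp4: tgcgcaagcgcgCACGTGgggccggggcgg
Wdr43: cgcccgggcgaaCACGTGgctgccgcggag
They lie at chr11:72441355-72441376 (Mybbp1a, + strand), chr6:125131811-125131840 (Nop2, + strand), chr11:3963965-3963994 (Pes1, + strand), chr11:74898092-74898121 (Tsr1, + strand), chr10:88826765-88826789 (Utp20, - strand), chr8:106893643-106893672 (Utp4, + strand), chr17:71616220-71616249 (Wdr43, + strand). Of the 7, Nop2 and Utp20 had the largest centred activation differences (1.02 and 0.96) and Pes1 the smallest (0.02). The median centred difference was 0.64 for the 7 members with the motif and 0.48 for the 26 measured members without it, ranges 0.02 to 1.02 and -0.64 to 1.38. Searched on both strands, the ETS core CCGGAAG lay in 13 of 36 windows (36.1%; 9.93% of all genes), CCAAT in 11 (30.6%; 41.1%) and TATAAA in 3 (8.33%; 15.7%). A match describes letters and not binding.

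The other ribosome biogenesis genes, from a list of 121 with 117 measured, moved less uniformly. On the centred scale 52 rose and 41 fell (background 37.3% and 46.8%), with a median of 0.04. As deposited 96 rose and 12 fell (background 68.4% and 22%), with a median of 0.45. Pno1, a small subunit assembly factor, rose by 1.17, and Ltv1, Rrp15 and Grwd1, also assembly factors, by 0.87, 0.87 and 0.86. Exosc8, a subunit of the RNA exosome, fell by 1.43 on the log2 scale, centred, and Taf1b, a subunit of the RNA polymerase I selectivity factor, fell by 1.14. Nop53 and Ddx52 fell by 1.03 and 0.73. These 4 were lower as deposited too, by -1.02, -0.73, -0.63 and -0.33.

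The proteins of the finished ribosome did not follow the assembly factors. Of 53 measured cytoplasmic ribosomal protein genes (77 listed) 3 were higher and 50 lower on the centred scale (background 37.3% and 46.8%), with a median of -0.56. As deposited 10 were higher and 38 lower (background 68.4% and 22%), with a median of -0.16. Their array medians were high in both states, between 12.76 and 13.11 as deposited. Rpl22 fell by 1.76 centred and 1.35 as deposited, and Rps21, Rps3a1 and Rps20 were lower by -0.85, -0.79 and -0.75 centred. Rps15a, Rpl12 and Rplp2 were the 3 that rose (0.34, 0.26 and 0.25). The median of all probe sets brighter than 11 was -0.52 centred, close to the ribosomal protein median.

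In the mean of the clones, cell cycle genes moved in another direction than the members. Of 29 measured cell cycle genes 26 were lower on the centred scale (limma, background 46.8%), with a median of -0.97. As deposited 19 were lower and 1 higher (background 22% and 68.4%). Their group medians fell most in CD8bm1 and 8uvmo-2. In sAg1 they rose, as the members did, from a mean of 7.43 to 8.45 as deposited and from 7.67 to 8.28 centred. The sAg1 array medians were 7.11 to 7.89 dormant and 7.79 to 8.91 activated as deposited. Their part in the members' values was not tested.

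IL13+ and IL13-negative clones were compared within each state on deposited values. Among dormant cells the IL13+ clones had 14 members at a higher level and 2 at a lower level (background 19.4% and 18%), with a median difference of 0.10. No member differed by 1 log2 unit, where 1.52% of probe sets were higher and 3.08% lower by that much. The largest were Tsr1 (0.54 ± 0.10), Gnl3 (0.54 ± 0.11), Polr1b (0.53 ± 0.14) and Utp4 (0.48 ± 0.08). Tsr1 averaged 8.90 in sAg1, 9.65 in sAg3, 8.41 in 8uvmo-2 and 9.05 in 8uvmo-3, so sAg1 lay below an IL13-negative clone. The same held for Utp4, on chromosome 8, with 10.04, 10.66, 9.64 and 10.09 in that order. Nip7 and Nob1, also on chromosome 8, likewise had their highest dormant mean in sAg3. Gnl3 read 9.73 to 10.21 in the IL13+ clones, 8.94 to 9.18 in 8uvmo-2 and 9.77 to 9.90 in 8uvmo-3. Of the 14 members called higher, only Gnl3 and Heatr1 had both IL13+ clone means above both IL13-negative means. Among all probe sets 2547 of the 4533 called higher did so (10.9% of all), a larger share. The margin of Gnl3 was small, 9.84 in sAg3 against 9.83 in 8uvmo-3. Both members called lower, Ncl and Wdr12, had both IL13+ means below, as did 2313 of the 4225 probe sets called lower (9.88% of all). Cell cycle genes were lower in the dormant IL13+ clones, 24 of 29 (background 18%), with a median of -1.14. Their part in the members' differences was not tested.

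In activated cells the direction turned: the IL13+ clones had 1 member at a higher level and 22 at a lower level (background 15.4% and 15.3%), with a median of -0.25. Again no member differed by 1 log2 unit (1.06% of probe sets higher, 1.58% lower). Wdr12 was lower by -0.79 ± 0.09, Ddx10 by -0.78 ± 0.07, Wdr75 by -0.59 ± 0.06 and Rrp1b by -0.58 ± 0.09. Wdr12 read 9.90, 9.78, 9.61 and 9.61 in activated sAg1 and 8.90, 9.06, 8.75 and 8.68 in activated sAg3, against 10.50, 10.35, 10.63 and 10.17 in 8uvmo-2 and 9.48, 9.83, 9.68 and 9.93 in 8uvmo-3. Activated sAg3 was lowest, and sAg1 overlapped 8uvmo-3. The dimmer Wdr12 probe set gave -0.83. Wdr75 read 10.65, 10.62, 10.47 and 10.55 in sAg1, 10.10, 10.10, 10.05 and 9.97 in sAg3, 11.16, 11.08, 11.23 and 10.85 in 8uvmo-2 and 10.57, 10.80, 10.67 and 10.84 in 8uvmo-3. Both IL13+ clones lay below 8uvmo-2 without overlap, and sAg1 overlapped 8uvmo-3.

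Nol6 was the member called higher, by 0.20 ± 0.08 (limma adjusted p = 0.046), with means of 10.69 and 10.78 in the IL13+ and 10.51 and 10.57 in the IL13-negative clones. It lost the call in 19 of the fits that leave out 1 array. Of the 22 lower members, 12 had both IL13+ clone means below both IL13-negative means. Among all probe sets 1735 of the 3585 called lower did so (7.41% of all 23410), a similar share of the called. The 12 included Ncl, Ddx21, Pes1, Nop58, Polr1a, Polr1c, Wdr74, Wdr75 and Wdr12. Ddx10 was not among these, since its mean was 10.33 in activated sAg1 and 10.31 in 8uvmo-3. Some margins within the 12 were as small and lay within the array spread. Wdr12 averaged 9.725 in activated sAg1 and 9.73 in 8uvmo-3, and Pes1 averaged 10.965 and 10.998. Between the activated phenotypes the 29 cell cycle genes differed by -0.50 to 0.82, with a median of 0.02.

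**Figure D5:**
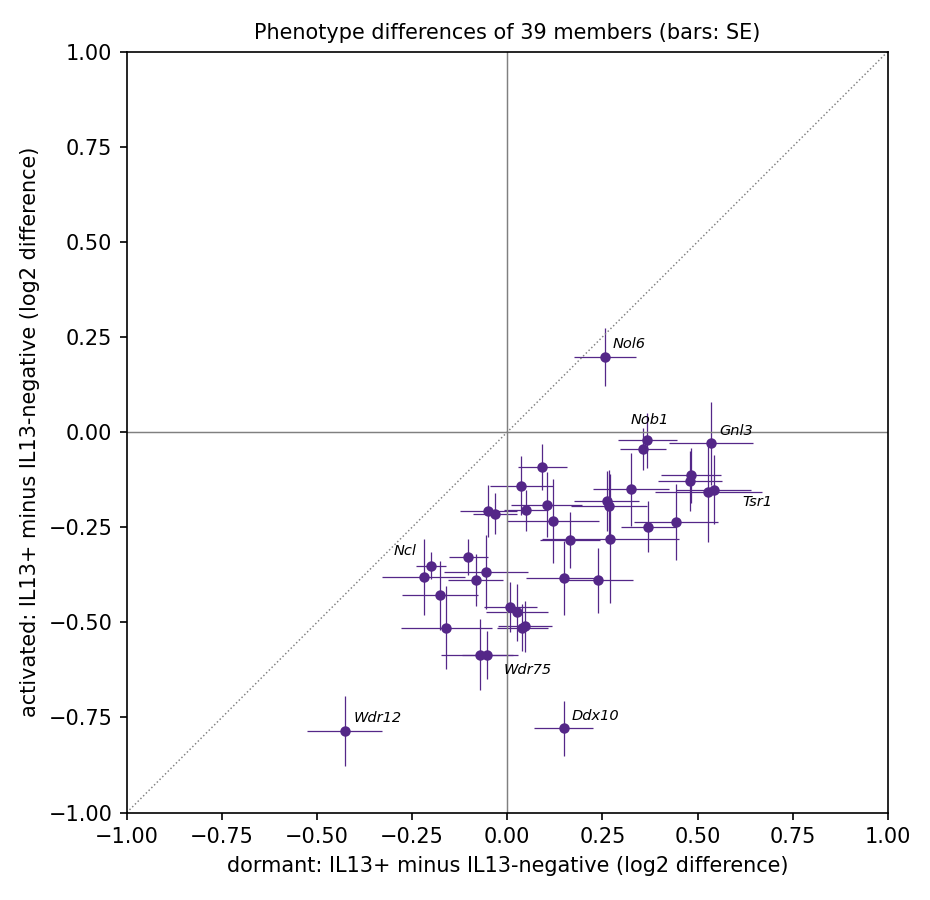
IL13+ minus IL13-negative log2 difference of each of the 39 members in dormant (x axis) and activated cells (y axis), deposited values, bars ± SE; the dotted line marks equal differences. Every point lies below the dotted line, so the difference was lower in activated than in dormant cells, and Ddx10 lies farthest from it.

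The activation effect of the IL13+ clones was smaller than that of the IL13-negative clones for 26 members (background 10.7% smaller and 9.73% larger), with all 39 differences negative and a median of -0.47. None reached 1 log2 unit (0.816% smaller and 1.5% larger). This contrast is the difference of the 2 phenotype comparisons above and uses the same arrays. Ddx10 (-0.94 ± 0.11), Tsr1 (-0.71 ± 0.14), Polr1b (-0.70 ± 0.20) and Nop2 (-0.70 ± 0.15) had the largest. Both IL13+ effects were smaller than both IL13-negative effects for 11 of the 26 called members, among them Rrp9, Nhp2, Heatr1 and Tsr1. Among all probe sets 1622 of the 2514 called smaller did so (6.93% of all 23410), a larger share of the called than for the members. Nop2 is an example of the other kind: it rose by 1.16 in sAg1 and 0.36 in sAg3, against 1.79 in 8uvmo-2 and 1.12 in 8uvmo-3, so sAg1 exceeded 8uvmo-3. With clone means as the replicates, limma called 0 members in any of these 3 phenotype comparisons, and 0, 0 and 2 members had an unadjusted p under 0.05 (dormant, activated and difference in activation).

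Against CD8bm1 the IL13+ clones had 4 members higher and 12 lower in dormant cells (background 20.9% and 20.2%), and 13 higher and 8 lower in activated cells (15.6% and 13.9%). In dormant cells Gnl3 (0.58 ± 0.14), Nol6 (0.48 ± 0.10), Nip7 (0.42 ± 0.10) and Nop14 (0.27 ± 0.07) were higher. Wdr12 (-1.07 ± 0.12), Wdr75 (-0.94 ± 0.08), Rrp1b (-0.57 ± 0.12) and Nop58 (-0.52 ± 0.15) were lower. Wdr12, through its brighter probe set of uncertain origin, was the only member past 1 log2 unit in either state (dormant background 3.42% higher and 4.35% lower, activated 2.22% and 1.78%). Dormant Wdr75 read 9.40 to 9.68 in the IL13+ clones and 10.32 to 10.67 in CD8bm1, without overlap. In activated cells Nip7 (0.47), Nol6 (0.45), Gar1 (0.42) and Utp20 (0.38) were higher and Rrp1b (-0.86), Wdr75 (-0.56), Polr1b (-0.56) and Wdr12 (-0.42) lower. Activated Rrp1b read 10.31, 10.45, 10.56 and 10.31 in CD8bm1, above the 9.80 to 10.17 of sAg1 and the 8.96 to 9.24 of sAg3. Leaving out array 4 of dormant CD8bm1 raised the count of members higher in dormant IL13+ clones from 4 to 10, and with clone means as replicates no member was called in either state (2 and 0 at an unadjusted p under 0.05, limma).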

How the data were processed

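The log2 values were used as deposited by the authors. The submitters' processing notes name Partek and the RMA method without version; whether all arrays were normalized together is not given in the sources used here. Per the labels' protocols, 100 ng of total RNA, prepared by RNeasy, entered the Affymetrix WT Plus labelling. Groups came from the labels. Arrays carry no read depth, so their number limits the precision.

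The table held 35556 probe sets, 23410 of them with a gene name in the platform annotation; 21698 matched the GRCm38.p6 gene table. The probe set with 1 symbol and the highest mean stood for each gene. limma 3.58.1 (R 4.3.3) fitted 1 mean per group over all 38 arrays, with moderated variances and a mean trend. Contrasts weighted clones equally, on centred values for activation and on deposited values within a state, and p-values were two-sided. ± is the standard error of a difference. The procedure was tested on simulated data.

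The members, role groups and gene lists were chosen with earlier results of these data known. Singled out were, in each role group, the 2 members with the largest and the 1 with the smallest mean activation difference, in each other comparison up to 4 called members per direction (or with the smallest p of the F test), all 10 regulators, and up to 4 called genes per direction of the other ribosome biogenesis and ribosomal protein lists; the remaining members are given by role. Array values are printed for the leading members only. Nothing in the labels tells separate cultures from repeats of a culture, so the p-values reflect array-to-array spread that could be technical. Alternatives covered scaling, a filter on dim probe sets, the probe sets tested, the variance model, a replicate block, left-out arrays, clone means and a minimum difference; 2 contrasts of 1 clone with the others were added after seeing the data.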

Additional observations from a re-analysis of the deposited data

Results flagged for a closer look

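Arrays that stood apart were looked for in 128 groups of 4 arrays of named members, and 3 stood apart; chance gives about 1 in 20 groups. Polr1a read 9.18 on array 1 of activated sAg3, where the others read 9.06 to 9.08. Polr1c read 9.54 on the same array, where the others read 9.75 to 9.76. Polr1c read 10.69 on array 3 of dormant CD8bm1, where the others read 10.29 to 10.35.

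The activation effects of the 5 clones were unequal for 38 of 39 members. Between the phenotypes, the activation effect of the IL13+ clones was smaller for 26 members and larger for 0 in limma's test of the difference itself; all 39 differences were negative, so 0 were larger at an unadjusted p under 0.05. The largest such differences were those of Ddx10 (-0.94), Tsr1 (-0.71), Polr1b (-0.70) and Nop2 (-0.70). Each phenotype rests on 2 clones. With clone means as replicates limma called 0 members for this difference, and 2 had an unadjusted p under 0.05.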

How the results depend on the processing

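With a log2 difference of at least 1 required, the members called in activation became 4 higher and 0 lower in the mean of the clones, 6 and 0 in sAg1, 2 and 1 in sAg3, 22 and 0 in 8uvmo-2, 3 and 0 in 8uvmo-3, and 1 and 0 in CD8bm1. Under the same minimum every phenotype count became 0 except 1 member lower in dormant IL13+ clones against CD8bm1, and the contrasts of 1 clone with the others became 1 lower for sAg3 and 2 higher for 8uvmo-2. With clone means as replicates, mean activation had 21 higher and 1 lower, and all counts of the phenotype comparisons, of those with CD8bm1 and of the difference in activation became 0.

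Deposited values, quantile normalization and cyclic loess each gave 1 member lower in mean activation in place of 4, and 0 in place of 1 in sAg1 and 8uvmo-3; quantile normalization gave 0 in 8uvmo-2. In sAg3 they gave 28 higher each, with 3, 3 and 2 lower. In CD8bm1 they gave 35, 35 and 33 higher and 2 lower each. Mean activation turned positive for Ddx10 (0.10, 0.13 and 0.10) and Npm1 (0.13, 0.20 and 0.20), as did Nob1 in CD8bm1 (0.005, 0.061 and 0.039) and, with quantile normalization, Npm1 in CD8bm1 (0.036). Centring arrays removed the 1 member higher in activated IL13+ clones, leaving 0. The cause of these changes was not tested.

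Without dormant 8uvmo-2 arrays 1 and 3, 2 members in place of 1 were lower in 8uvmo-2. The replicate numbers of 18 dormant and activated pairs gave correlations of -0.236 to 0.268, 7 of them over 0.1, so they were not taken to pair the samples over all clones. In 8uvmo-2 alone all 4 pairs were over 0.1 (0.113 to 0.237). With a block for each clone and replicate number, activation of 8uvmo-2 again had 36 members higher and 1 lower. With the replicate number as a block over all groups the 1 member higher in activated IL13+ clones became 0, and no other count moved by over 1.5 times. Leaving out 1 array at a time gave 5 to 11 members higher in sAg3 (5 without array 3 of dormant sAg3), 1 to 2 lower in 8uvmo-2 (2 without array 1 of dormant 8uvmo-2) and 2 to 4 lower in dormant IL13+ against IL13-negative clones (4 without array 3 of dormant CD8bm1). It gave 0 to 1 higher in activated IL13+ against IL13-negative clones, and 4 to 10 higher in dormant IL13+ clones against CD8bm1 (10 without array 4 of dormant CD8bm1).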
